A study of Mus musculus with 6 samples.

Results

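The Notch pathway and Fringe genes described here are 10 genes, Notch1, Notch2, Notch3, Jag1, Dll1, Dll3, Hes1, Hes5, Lfng and Rfng, measured in the cerebellum of newborn mice whose mothers ate folic acid (FA) at 2 or 20 mg/kg diet. Their members were selected on measured dose differences of these same arrays, so each dose difference below is a description and carries no test. A probe belonged to a member if its gene name on the array was that of the member, which gave 15 probes of the 55681 probes and 10 genes of the 34797 gene names on the array. C57BL/6J dams received an AIN-93G diet, custom-made with amino acids in place of protein, from a week before mating through pregnancy, and cerebella were collected at postnatal day 1 (P1). Each of the 6 one-colour arrays held RNA pooled from 3 pups of 1 sex, each pup from a different dam. The 4 groups were female 2 mg (1 array), female 20 mg (2 arrays), male 2 mg (1 array) and male 20 mg (2 arrays), alike in strain and in the rest of the diet. The titles of the samples name the cerebellum, whereas a further label names whole brain. All 7 markers of the cerebellar granule lineage and all 7 Purkinje cell markers were well above background on both 2 mg arrays, and so were all 10 forebrain markers.

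Notch receptors are single-pass membrane proteins that are cut when a ligand on a neighbouring cell binds them. The intracellular part then enters the nucleus, joins Rbpj and Maml proteins on DNA and activates genes such as Hes1 and Hes5, whose repressor products hold cells in a progenitor state. Fringe enzymes add a sugar to Notch in the Golgi and so alter its response to Delta and Jagged ligands. In the developing cerebellum the pathway is known for its part in keeping radial glia and granule cell precursors from differentiating, and for signalling between Purkinje cells and Bergmann glia.

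Of the promoters of these genes in RefSeq (build GRCm38.p6, 250 bases before to 50 bases after a start, 9 of the 10 genes matched, Hes1 not), those of Hes5 and Lfng held the core letters of the Rbpj site. The motif searched was TGGGAA on both strands, and each of these promoters held it 2 times, once on each strand. The 250 bases before the start of each follow, 5′ to 3′ along the gene, with each match in capitals. They are shown because these are the 2 of 9 matched members in which these letters were found.
Hes5, chr4:154960673-154960922, plus strand: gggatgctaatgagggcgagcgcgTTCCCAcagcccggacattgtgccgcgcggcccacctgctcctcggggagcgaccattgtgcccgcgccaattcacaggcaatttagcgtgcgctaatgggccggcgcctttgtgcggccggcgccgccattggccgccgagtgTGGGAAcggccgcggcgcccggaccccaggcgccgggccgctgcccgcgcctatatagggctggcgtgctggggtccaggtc
Lfng, chr5:140607091-140607340, plus strand: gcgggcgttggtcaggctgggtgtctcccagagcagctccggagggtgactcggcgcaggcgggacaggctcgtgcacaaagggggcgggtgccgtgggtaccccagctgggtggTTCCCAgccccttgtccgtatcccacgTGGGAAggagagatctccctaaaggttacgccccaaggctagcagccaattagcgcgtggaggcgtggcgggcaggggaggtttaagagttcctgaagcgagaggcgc
In the Hes5 window the matches lie at bases 25 to 30 and 169 to 174, and in the Lfng window at bases 116 to 121 and 143 to 148, counted from 1 at the 5′ end. The same letters occur in 25.6% of the 32851 promoters of this length, so 2 of 9 is near that share. The other motif searched was CACNAG, the N box bound by Hes repressors, which 42.5% of all promoters held. It was found in the promoters of Notch1 (3 times, with a pair of overlapping matches on opposite strands), Notch2, Notch3 (2 times), Lfng, Rfng and 1 of the 2 Dll1 promoters, and overlapped no Rbpj core. A match is a stretch of letters and not a bound site.

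The probes through which the central members were read are shown by their first 30 of 60 bases, to show where Hes1 and Notch1 were read and which 2 stretches of Rfng gave opposite differences. Positions are those of the array design on mm9. No annotation of mm9 was used here, so exons and introns are not assigned.
Hes1, chr16:30067820-30067879, plus strand: ttaaaatatcttcctttggggaagtttatt
Notch1, chr2:26319440-26319499, minus strand: tcctgcagtggagggggccttgagacaggc
Rfng, brightest probe, chr11:120642060-120642119, minus strand: tttacggggaggccgaggggagcggttgca
Rfng, second probe, chr11:120643797-120643856, minus strand: cagtttcatgagcacagcagagcgcgttcg
Over its 60 bases the Hes1 probe had a GC content of 26.7%, the lowest among the 15 probes. The Notch1 probe was at 55%, and the Rfng probes were at 53.3% and 55%.

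All levels below are log2 normalized intensities of the brightest probe of a gene, and a dose difference is the mean of the 20 mg arrays minus the 2 mg array of the same sex. The arrays differed in quality. Between 51.1% and 71.9% of probes were well above background on 5 arrays, but 23.3% on the array labelled female 20 mg replicate 2, whose median signal was 5.14 against 39.0 to 162 on the others. Its mean Spearman correlation with the other arrays over probes was 0.658, against 0.861 to 0.889 for each of the others. The female 2 mg, male 2 mg and female 20 mg replicate 1 arrays shared a slide, so the difference between the female arrays of that slide is the only dose difference within a slide. Female 20 mg replicate 2 and male 20 mg replicate 1 shared another slide, scanned on another day than the other 4 arrays, and male 20 mg replicate 2 was on a slide of its own. All 10 members were well above background on both 2 mg arrays, on female 20 mg replicate 1 and on male 20 mg replicate 2. Male 20 mg replicate 1 measured 9 of the 10 and female 20 mg replicate 2 only 5 (Notch1, Notch3, Dll3, Hes5 and Rfng). Among all 25504 genes, 42.0% were well above background on that last array.

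**Figure D1:**
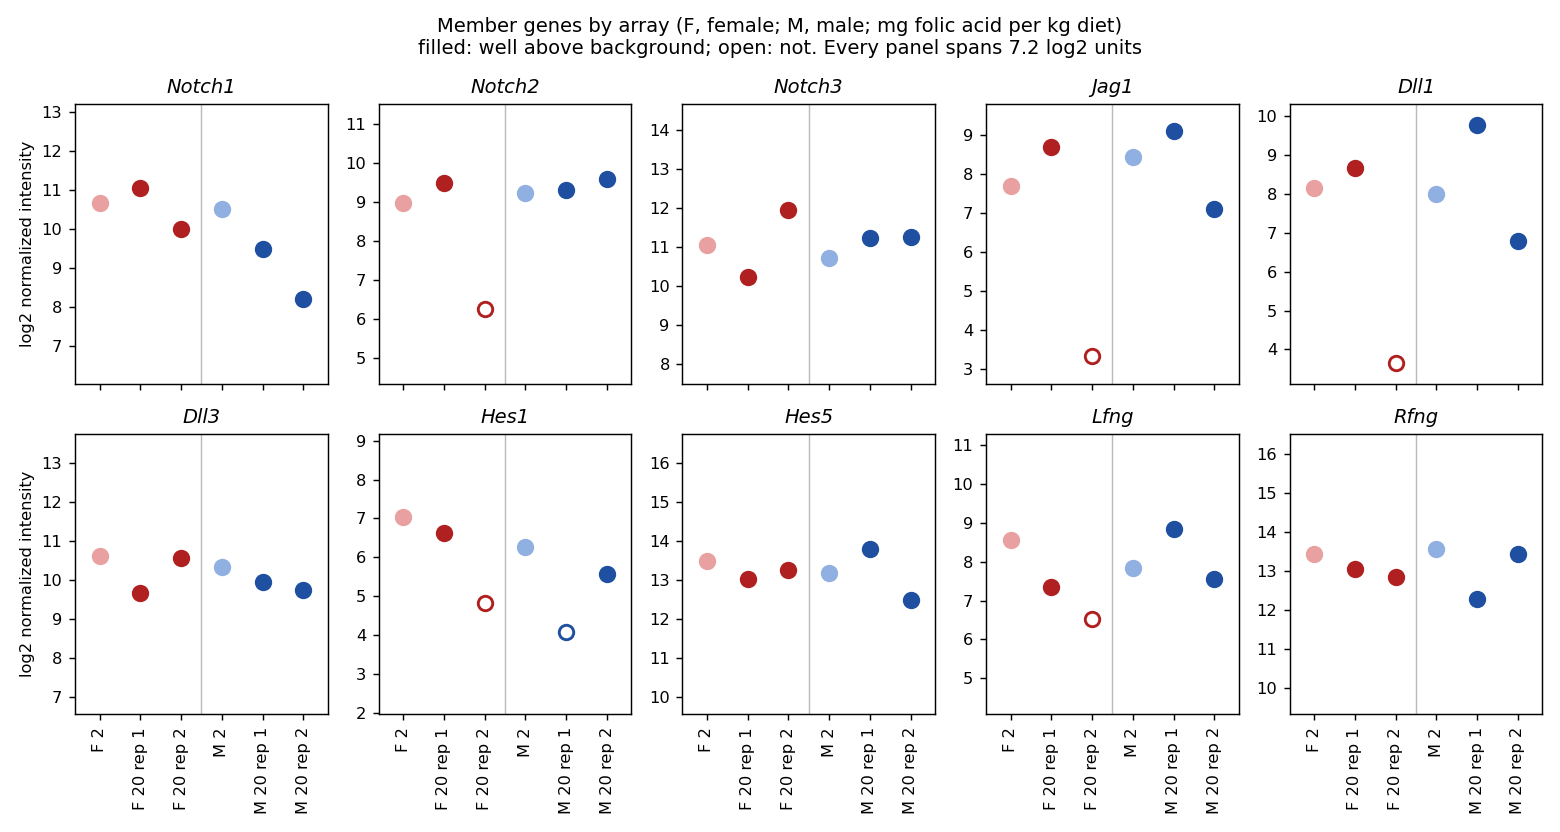
Log2 normalized intensity (y axis, each panel 7.2 units tall) of the brightest probe of each member on each of the 6 arrays (x axis), with filled points where the probe was well above background and open points where it was not. Open points appear for 5 members on female 20 mg replicate 2 (Notch2, Jag1, Dll1, Hes1 and Lfng) and for Hes1 on male 20 mg replicate 1.

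In male pups Notch1 and Hes1 were lower at 20 mg by more than 2.5-fold and no member was higher by that much. Over all genes the same rule gave 4.36% lower and 1.86% higher, which stands here as background only, since this contrast chose the members. The median dose difference over the 10 members was -0.18, against -0.07 over all genes. In female pups Jag1, Dll1 and Lfng were lower past 2.5-fold and none was higher, with backgrounds of 16.9% lower and 6.41% higher. The median over the members was -0.80 in females, against -0.17 over all genes. On the slide that held both female doses, 0 of the 10 members passed 2.5-fold in either direction, where 4.18% of all genes did, and the median over the members was -0.41 against 0.01. Hes1 in females lay just outside the threshold, at -1.321 where 2.5-fold is 1.322.

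**Figure D2:**
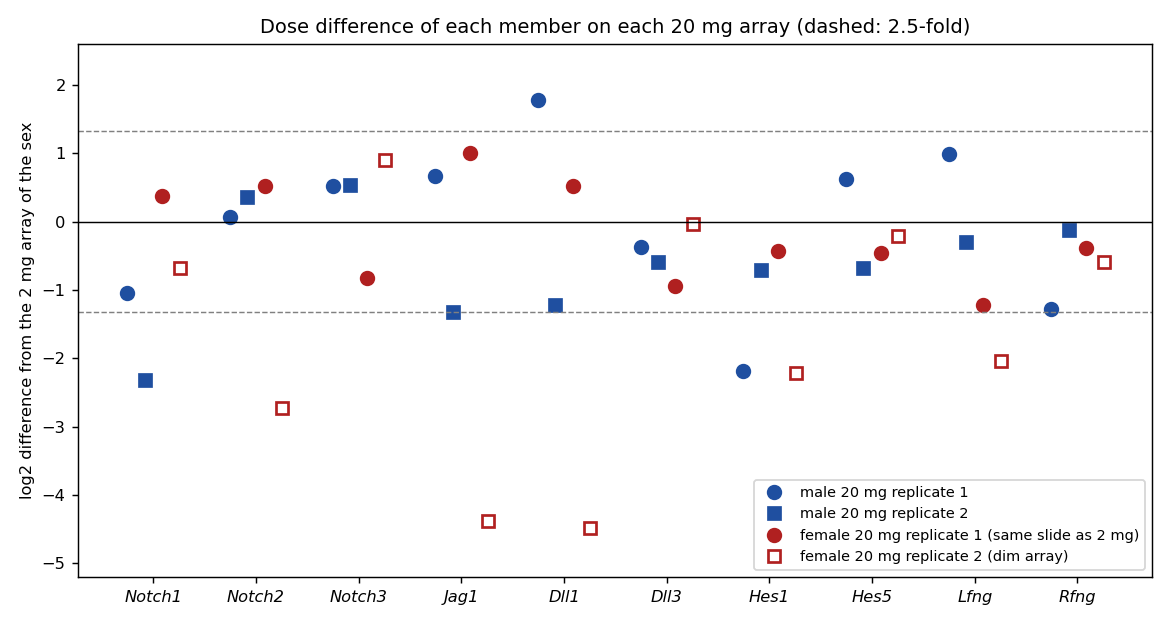
Log2 difference of each 20 mg array from the 2 mg array of its sex (y axis) for each member (x axis), males in blue and females in red, with dashed lines at 2.5-fold. The female values below -2.5 (Notch2, Jag1 and Dll1) all come from replicate 2, and the same 3 genes are above 0 on replicate 1.

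Among the receptors, Notch1, the receptor best known in neural progenitors, was at 10.67 in female 2 mg and 10.51 in male 2 mg. At 20 mg it read 9.47 and 8.19 in the male pools and 11.04 and 9.99 in the female pools. Both male pools were therefore below their 2 mg array, by 1.04 and 2.32, while the female pools lay on either side of theirs. The male dose difference was -1.68 (3.2-fold lower, SD of the 20 mg pools 0.90, n = 2), and the female one was -0.15 (SD 0.74, n = 2). Without male 20 mg replicate 2 the male difference was -1.07, short of 2.5-fold, and without replicate 1 it was -2.29. Notch1 was well above background on all 6 arrays. Its second probe, 4810 bases away, was well above background on no array and gave no reading of the change.

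Notch2, a receptor known in Bergmann glia, was at 9.24 in male 2 mg and at 9.30 and 9.60 in the male 20 mg pools. In females it was at 8.98 at 2 mg, 9.50 on replicate 1 and 6.25, not well above background, on replicate 2. Without that array the female difference turned from -1.11 to 0.52. Notch3, the receptor of mural cells, was at 10.72 in male 2 mg and at 11.24 and 11.26 in the male 20 mg pools, a difference of 0.53 (SD 0.01, n = 2). Its female pools differed in sign, at -0.82 on replicate 1 and 0.91 on replicate 2.

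Among the ligands, Jag1, a Jagged protein known for signalling to Bergmann glia, was at 7.70 in female 2 mg, 8.70 on female 20 mg replicate 1 and 3.32 on replicate 2, the last at the floor set for dim signals. In males it was at 8.43 at 2 mg and at 9.09 and 7.11 at 20 mg. The pools of each sex thus lay on both sides of the 2 mg array. The dose difference was -1.69 in females (SD 3.81, n = 2) and -0.33 in males (SD 1.40, n = 2).

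Dll1, a Delta ligand that newly formed neurons present to their neighbours, had its values in the same order as Jag1 within each sex. It was at 8.14 in female 2 mg, 8.66 on replicate 1 and 3.65, not well above background, on replicate 2. In males it was at 7.99 at 2 mg against 9.78 and 6.77 at 20 mg. Both Jag1 and Dll1 were above the 2 mg array on the first replicate of each sex and below it on the second. Replicates of the same number lay on different slides in the sexes, and neither gene was well above background on female replicate 2. The brightest Dll1 probe was printed in 10 spots per array, and the spread of log2 signal over spots was between 0.04 and 0.16 SD. This spread covers spot noise within an array and none of the variation between pools, labellings or slides. The dose difference was -1.98 in females (SD 3.54, n = 2) and 0.28 in males (SD 2.12, n = 2).

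Dll3, a Delta protein that acts within the cell on Notch signalling, was lower on all 4 arrays at 20 mg, by 0.38 and 0.59 in males and by 0.94 and 0.04 in females. Of the 10 members, 3 (Dll3, Hes1 and Rfng) were lower on all 4 arrays and 0 were higher on all 4, where 6.81% and 4.54% of all genes were so. These shares stand as background only, since dose differences of these arrays chose the members. The count rests on brightest probes, and the second probe of Rfng was higher on all 4. Hes1 was not well above background on male 20 mg replicate 1 or female 20 mg replicate 2. The second probe of Dll3, 298 bases away and well above background on all 6 arrays, gave 0.26 and 0.06 in males and -0.74 and 0.52 in females. The pair therefore took the same sign on 1 of the 4 arrays, and no difference of either probe reached 2.5-fold.

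Of the Hes repressors, Hes1 was at 7.04 in female 2 mg, 6.62 on female 20 mg replicate 1 and 4.83 on replicate 2. In males it was at 6.28 at 2 mg, 4.09 on replicate 1 and 5.56 on replicate 2. All 4 of the 20 mg values lay below the 2 mg array of their sex, and in each sex the pool farthest below was not well above background. These 2 pools, male 20 mg replicate 1 and female 20 mg replicate 2, are those that shared the slide scanned on another day, and the part of slide and day was not tested. Where it was measured, the differences were -0.43 in females and -0.71 in males, neither past 2.5-fold. The mean difference was -1.45 in males (2.74-fold lower, SD 1.04, n = 2) and -1.32 in females (SD 1.26, n = 2). Without male 20 mg replicate 1 the male value was -0.65, and with normexp background correction -0.80, neither past 2.5-fold. Hes5, the main Notch-responsive repressor of neural progenitors, was at 13.17 in male 2 mg, 13.79 and 12.49 in the male 20 mg pools, 13.47 in female 2 mg and 13.02 and 13.26 in the female 20 mg pools. Its dose difference was -0.03 in males (SD 0.92) and -0.34 in females (SD 0.17), with n = 2 each.

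Of the Fringe enzymes, Lfng (Lunatic fringe) was at 8.56 in female 2 mg, 7.34 on replicate 1 and 6.52, not well above background, on replicate 2. Both female pools were lower, by 1.22 and 2.04, and the difference was -1.63 (3.1-fold lower, SD 0.58, n = 2). With replicate 2 left out and the arrays normalized again, it was -1.29, short of 2.5-fold. In males Lfng was at 7.84 at 2 mg and at 8.83 and 7.54 at 20 mg, on both sides of the control. On single arrays at 20 mg the Lfng differences were 0.99, -0.29, -1.22 and -2.04, and those of Hes5 were 0.62, -0.68, -0.46 and -0.22, in the order of male replicates 1 and 2 and female replicates 1 and 2. The Lfng value on female replicate 2 was read where its probe was not well above background. Any part of the promoter letters in these values was not tested.

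Rfng (Radical fringe) was the only member whose 2 probes were both well above background on all 6 arrays and moved in opposite directions on all 4 arrays at 20 mg. The brightest was lower on all 4 arrays at 20 mg, at 13.55 in male 2 mg against 12.27 and 13.42, and at 13.44 in female 2 mg against 13.05 and 12.85. The second, 1737 bases away, was higher on all 4. It was at 5.07 in male 2 mg against 6.50 and 6.43, and at 4.57 in female 2 mg against 6.21 and 9.10. The dose differences were -0.70 and 1.40 in males and -0.49 and 3.09 in females, the brightest probe first. Within the slide shared by the female doses they were -0.39 and 1.64. A single direction for Rfng could therefore not be given, and averaging both probes turned the sign in each sex, to 0.35 in males and 1.30 in females. The probes of other members also disagreed in females, at -1.11 and 1.11 for Notch2 and at -1.98 and 0.59 for Dll1, where neither probe was well above background on female 20 mg replicate 2.

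**Figure D3:**
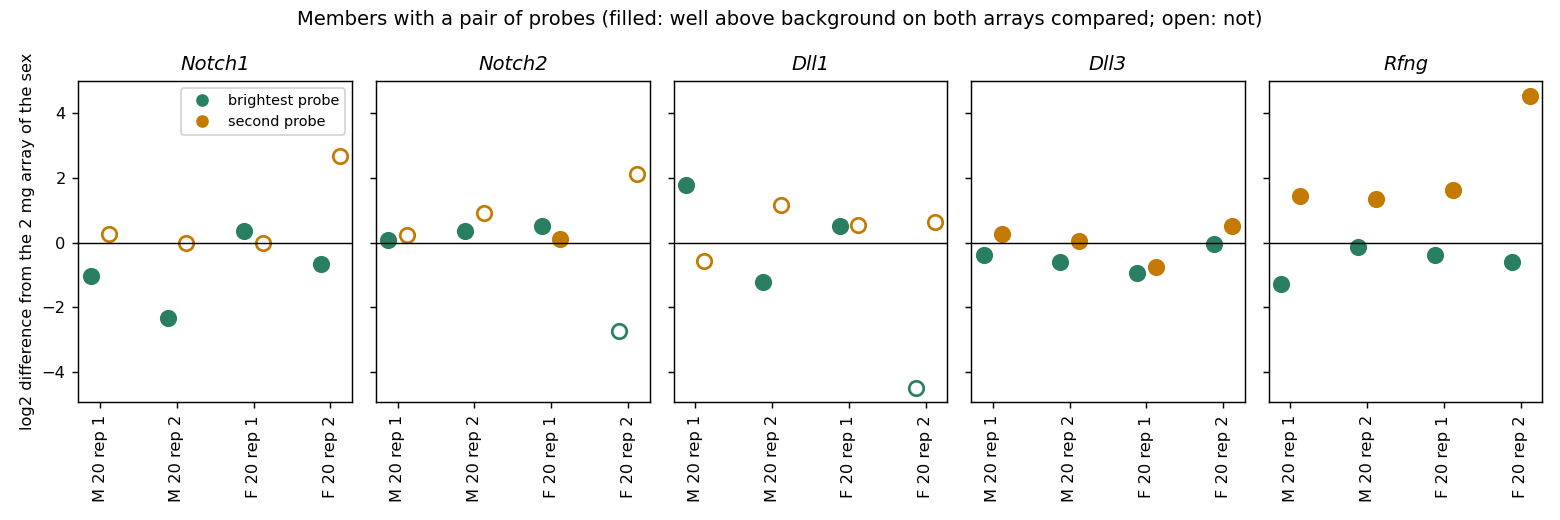
Log2 difference from the 2 mg array of the sex (y axis) on the 4 arrays at 20 mg (x axis) for the 5 members with 2 probes, filled where the probe was well above background on both arrays compared. For Rfng all points are filled, with the brightest probe at or below -0.13 and the second probe at or above 1.36.

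Differences between the pools of a dose were large for members and for genes in general. The 2 male 20 mg pools differed past 2.5-fold in 3 of the 10 members and in 37.3% of all genes. For the female 20 mg pools these figures were 5 of 10 and 51.9%. The median difference between pools, without sign, was 1.28 over the members and 1.01 over all genes in males, and 1.39 and 1.38 in females. By contrast the male and female 2 mg arrays, hybridised on one slide, differed past 2.5-fold in 0 of the 10 members and in 1.45% of all genes, with a median of 0.30 without sign over the members and 0.21 over all genes. Values there ran from -0.77 for Hes1 to 0.73 for Jag1, male minus female.

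Between the sexes, female minus male over both doses, the estimates of limma ran from -1.41 (SE 1.63) for Jag1 to 0.92 (SE 0.92) for Notch1. They are given as a description, since they rest in part on the same 20 mg arrays whose dose differences chose the members. Standard errors ran from 0.68 to 1.63 on the log2 scale, and no estimate of the 10 members exceeded its own standard error. Such estimates do not show that the sexes were alike.

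The GC content of the probe moved with some of these values. On male 20 mg replicate 2 the dose difference of all 25504 genes had a Pearson correlation of 0.444 with the GC content of the probe across genes, and on the other 3 arrays it lay between -0.141 and 0.088. These genes share 1 array and are not independent. For probes under 35% GC, the class of the Hes1 probe, the median difference over 521 genes was -0.64 and -0.92 on male replicates 1 and 2, and 0.10 and -1.34 on female replicates 1 and 2. Hes1 itself read -2.19, -0.71, -0.43 and -2.22 on these arrays. For probes at 55 to 60% GC, the class of the Notch1 probe, the medians over 2264 genes were 0.02 and 0.59 in males, against -1.04 and -2.32 for Notch1. In both male pools Notch1 lay below the median and the first quartile (-0.93 and 0.11) of this class. On female replicates 1 and 2 the class medians were -0.14 and -0.22, against 0.37 and -0.67 for Notch1. The 0.37 lay above the third quartile of 0.20. The Jag1 and Dll1 probes were both at 36.7% GC, in a class of 8470 genes with a median of -0.67 on male replicate 2 and -0.40 on female replicate 2. The part of GC content in the values of the members was not tested.

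**Figure D4:**
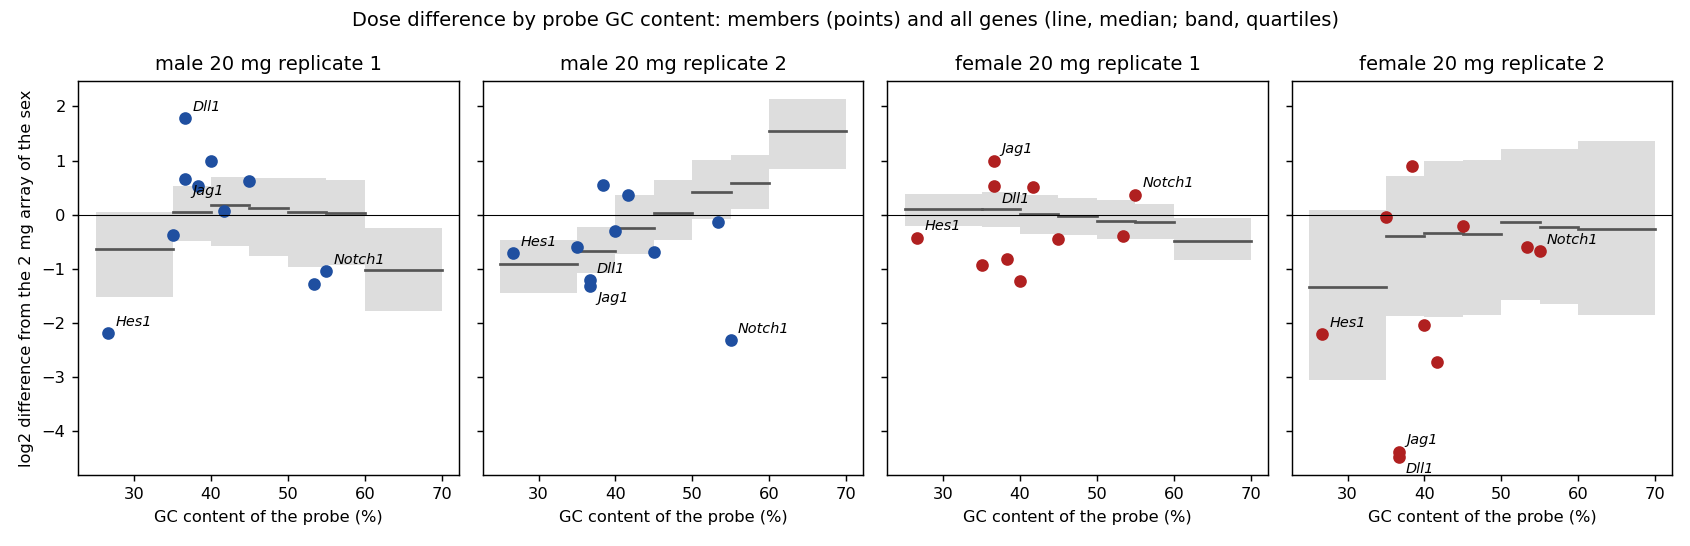
Log2 difference from the 2 mg array of the sex (y axis) against the GC content of the probe in percent (x axis) on each array at 20 mg, with the members as points, the median of all genes in each class of GC content as lines and the quartiles as bands; the outermost classes, under 35% and from 60%, are drawn 10 points wide. On male 20 mg replicate 2 the medians climb from -0.92 to 1.54 across the classes while Notch1 sits at -2.32.

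Markers of other cells were read on the same arrays, as a check of what the pools contained. In bulk tissue, fewer cells of a type and less RNA per cell cannot be told apart. The 10 radial glia and astroglia markers, the cells in which Notch target genes are chiefly active, had a median dose difference of 0.13 in males and -0.72 in females. The female median was -0.10 within the shared slide and -1.36 on female 20 mg replicate 2, where 5 of the 10 were well above background. Their summed level ran from 16.96 to 17.15 on the 2 mg arrays and from 15.94 to 17.22 on the 20 mg arrays. Fabp7 alone was at 16.46 in female 2 mg, so the sum mostly follows that gene. The 5 choroid plexus markers were higher in all 5 cases on female 20 mg replicate 1, with a median of 2.10 within the slide, and their summed level was 12.82 in female 2 mg against 16.44 and 14.99 in female 20 mg. In males the sum was 14.66 at 2 mg and 15.73 and 15.49 at 20 mg. The 10 forebrain markers summed to 13.37 in female 2 mg, 14.36 and 12.35 in female 20 mg, 12.80 in male 2 mg and 13.70 and 12.17 in male 20 mg, with 10, 10, 2, 10, 10 and 6 of them well above background in that order. The 8 endothelial markers, cells that use Notch1 and Jag1, summed to 13.49 and 13.55 on the 2 mg arrays and to between 12.15 and 14.63 on the 20 mg arrays. Kdr alone was at 14.28 on male 20 mg replicate 2, so the 14.63 of that array mostly follows that gene. The median difference over the 8 markers there was -0.07, with 3 above 0 and 5 below. The 6 markers of pericytes and vascular smooth muscle stand for mural cells, in which Notch3 is known. Their median dose difference was -1.31 in females and -0.07 in males. Past 2.5-fold 3 of 6 were lower in females and 1 of 6 in males, where 16.9% and 4.36% of all genes were so. The female median was -0.30 within the shared slide and -1.54 on female 20 mg replicate 2. The sum of these markers was 13.25 in female 2 mg against 11.82 and 11.78 in female 20 mg. In males it was 13.05 at 2 mg against 11.86 and 13.47 at 20 mg. On female 20 mg replicate 2 only 1 of these 6 was well above background. The part of all these marker lists in the differences of the members was not tested.

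The rest of the pathway was read from a list of 63 genes, of which 62 were found on the array and tested. With limma 0 of the 62 were called for dose in either sex or in the sexes combined, at an adjusted p of 0.05 or at an unadjusted p of 0.05, where 0.0% of all 37211 probes were called in each comparison, and 74, 161 and 145 of these probes passed the unadjusted threshold. In males 32 of the 62 were above 0 and 30 below, with a median of 0.07. Past 2.5-fold 1 was higher and 1 lower, where 1.86% and 4.36% of all genes were so. In females 31 were above 0 and 31 below, with a median of -0.00075. Past 2.5-fold 1 was higher and 6 lower, where 6.41% and 16.9% of all genes were so. Within the slide shared by the female doses 3 were higher and 1 lower, where 4.18% of all genes passed in either direction. On female 20 mg replicate 2, the dim array, 10 were higher and 16 lower, where 4703 and 8326 of 25504 genes were so.

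Among these, the male values farthest from 0 were those of Dner (-1.66, at 14.46 in male 2 mg against 12.35 and 13.24), a Delta-like protein of Purkinje cells, and of Dtx3 (1.40, at 10.16 against 11.41 and 11.71), a ubiquitin ligase of the Deltex family. Further values were those of Maml3 (-1.18), a coactivator of the Rbpj complex, Ncstn (1.02), a subunit of the gamma-secretase that frees the intracellular part of Notch, and the corepressor Tle1 (-0.94). In females Maml2 (-2.76), another coactivator, was lower in both pools, by 2.07 on replicate 1 and down to the floor, not well above background, on replicate 2. Itch (-2.67), a ligase acting on Notch, and Poglut1 (-1.84), which adds glucose to its extracellular repeats, were at 0.59 and 0.84 on replicate 1 and at -5.93 and -4.52 on replicate 2, not well above background there, so their negative differences rest on the dim array. The highest female values by the same rule were those of Hdac2 (1.15), Tle3 (1.12) and Dtx2 (1.05). Dll4, a ligand of vessels, read 2.31 in females but was not well above background on female 20 mg replicate 2 or on male 20 mg replicate 1.

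**Figure D5:**
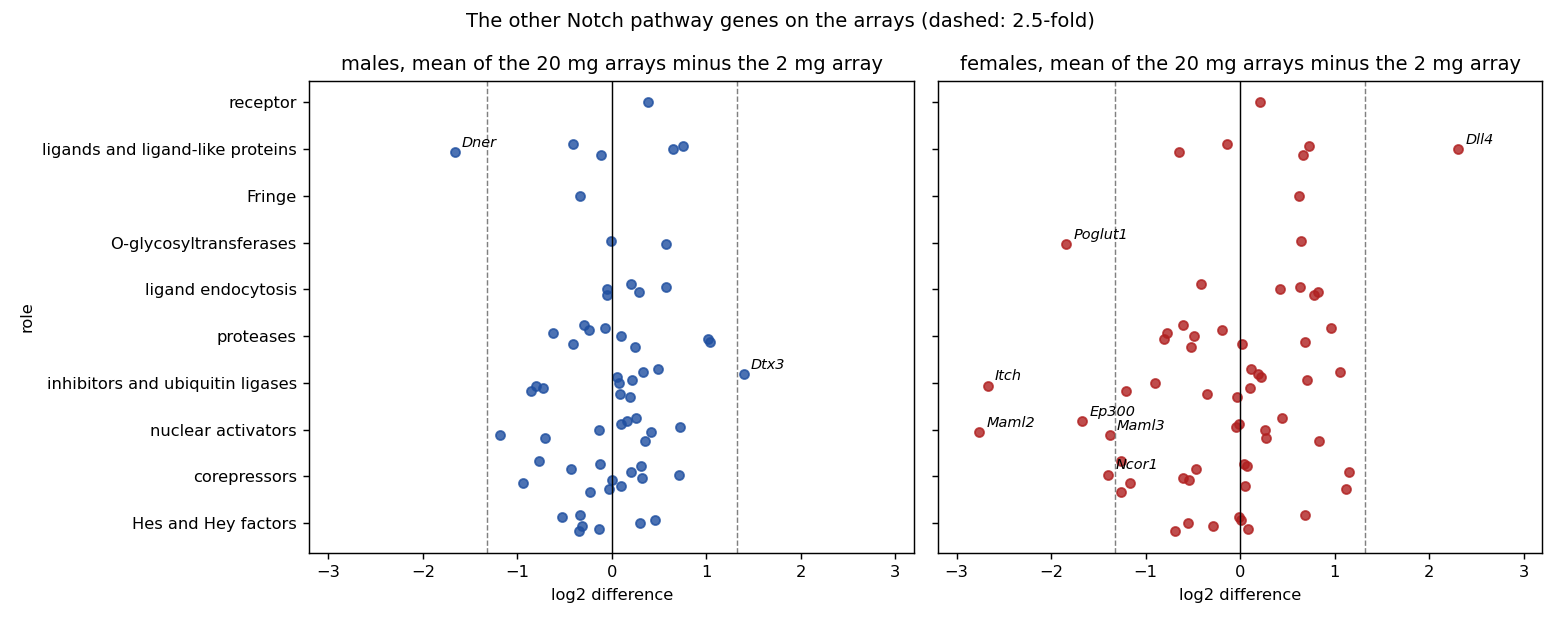
Dose difference (x axis, log2) of the 62 other Notch pathway genes by role (y axis), males left and females right, with dashed lines at 2.5-fold and the genes beyond them named. In males Dner and Dtx3 lie beyond the lines, and in females 6 genes lie below and Dll4 above.

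By role, the 7 further Hes and Hey factors ran from -0.53 to 0.46 in males and from -0.68 to 0.69 in females, none past 2.5-fold. Of the 9 genes for proteases that cut the receptor and their subunits, 4 were above 0 and 5 below in males, and 3 and 6 in females, none past 2.5-fold. Of the 12 corepressors 5 were above 0 and 7 below in each sex, with 1 (Ncor1) lower past 2.5-fold in females. Mfng, the remaining Fringe gene, was at -0.33 in males and 0.62 in females, and Notch4, the remaining receptor, at 0.38 and 0.21. The 8 proneural factors, which Hes repressors hold down, had a median of 0.11 in males and -0.48 in females with 0 of 8 called by limma. Neurod1, which drives granule cell differentiation, was farthest from 0 among them at 1.31 in males (1.47 and 1.16 on the 2 pools), and Atoh1, which specifies granule cell precursors, was at 0.14 in males and -0.83 in females.

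The genes whose profile over the 6 arrays was most like that of Hes1, among 8431 genes well above background on every array, were B3gat2 (Pearson r 0.987), Maea (0.977) and Gm5561 (0.976). B3gat2 was at 11.26 and 10.88 on the female and male 2 mg arrays, at 9.09 and 10.01 in the male 20 mg pools and at 10.93 and 9.81 in the female ones. Like Hes1, all 4 of its 20 mg values lay below the 2 mg array of the sex, and the lowest of each sex was on the slide scanned on another day. B3gat2 was picked for its likeness to Hes1, so this shared order follows largely from the choice. Hes1 itself was well above background on 4 of the 6 arrays. The points share the 6 arrays, and the ranking is a description.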

How the data were processed

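Total RNA of the pools was labelled with cyanine-3 and hybridised to SurePrint G3 mouse arrays by the authors, who read spot intensities with Agilent Feature Extraction 10.7.3.1. The deposited intensities are the processed signal, the mean signal and the local background of each spot, and the deposited flags (other) mark outliers and spots well above background. The value table deposited by the authors holds log2 values normalized by quantiles in BRB ArrayTools, and served as an alternative. Here, outlier spots were dropped, spots of a probe averaged, log2 values quantile normalized over the 6 arrays and a floor of 10 (3.32 on the log2 scale) set afterwards. The brightest probe by its mean over the arrays stood for a gene. The fold rule was 2.5. Tests used limma 3.58.1 in R 4.3.3 (4 groups, 2 residual degrees of freedom, intensity trend) with Benjamini-Hochberg adjustment. They covered the 37211 probes that 2 or more of the arrays measured well above background. The code was run on simulated data with large changes and a far smaller spread than these arrays. That run does not show what size of change could be found here. Since each 2 mg group had 1 array, all groups shared 1 spread, which came from the pairs of 20 mg arrays. The arrays of each pair lay on different slides scanned on different days, and the female pair included the dim array. The p-values therefore rest on a spread of slide, scan day and array quality together with that of the pools. This spread was applied also to the 2 mg arrays, which shared a slide. Genes named were the 10 members, up to 3 other pathway or proneural genes per sex and direction among those measured on 5 or more arrays, and the 3 genes most like Hes1. One gene that this rule names is not reported here. Dll4, Ncor1, Mfng, Notch4, Fabp7 and Kdr were named after their values were seen. Members and lists were chosen with earlier results of these data known. The authors repeated RNA extraction for a further batch of 20 mg pools, and which array belongs to which batch is not given in the sources used here. The number of arrays limits the precision.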

Additional observations from a re-analysis of the deposited data

Results flagged for a closer look

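Ncstn, a subunit of gamma-secretase, was singled out because its dose difference ran in opposite directions in the sexes. It was at 4.57 in male 2 mg against 5.86 and 5.31 in male 20 mg, and at 4.63 in female 2 mg against 4.33 and 3.32 in female 20 mg, the last at the floor and not well above background. Both male pools were above and both female pools below the 2 mg array, and the female dose difference minus the male one was -1.825 on the log2 scale. The difference between the sexes was not tested.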

How the results depend on the processing

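The count of members lower or higher past 2.5-fold in males, 2 with the values reported, was 1 (Notch1) with normexp background correction and 1 (Hes1) with all probes of a gene averaged, and ranged from 1 to 2 when a 20 mg array was left out (Notch1 without replicate 1; Hes1 lower and Dll1 higher without replicate 2). In females the count of 3 fell to 1 (Lfng) with a shift to the 75th percentile and to 1 (Lfng) with normexp, was 4 with the floor set before normalization (Notch2 and Hes1 joining, Jag1 lost at -1.24), was 2 with all probes averaged (Jag1 and Lfng), and ranged from 0 (without replicate 2) to 5 (without replicate 1). The averages over all probes included the second probes of Notch1 and Dll1, which were well above background on 0 and 1 of the 6 arrays. Without female 20 mg replicate 2 the female differences of Jag1 and Dll1 turned to 1.045 and 0.54, and without replicate 1 they were -3.988 and -4.349. With the deposited table the female count stayed 3, but Jag1 (-1.10) was lost and Notch2 (-1.76) joined. Within the shared slide the count of 0 became 1 with the 75th percentile. That shift moved the median of all genes in females from -0.17 to 0.37. The fit with the replicate number as a replicate block called 0 of the other pathway genes by dose, as did every other alternative run, with 40 to 62 of them tested. The replicate numbers of males and females share only a name. Over all probes this block gave 1, 10 and 13 calls by dose in males, females and both sexes and 7 by sex, against 0 each without it. Over all probes, leaving out female 20 mg replicate 1 gave 96 calls by dose in females and 13 over both sexes. Slide as a block could be fitted only with a dose difference shared by the sexes and for sex, where it gave 1 and 81 calls over all probes. That dose difference rests on female 20 mg replicate 1, the only 20 mg array on a slide with 2 mg arrays. No male 20 mg array informs it through a 2 mg array of its own slide. No 2 mg array could be left out, being the only one of its group. A lone array was assumed to vary like the others. The cause of these changes was not tested.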
